A study of Mus musculus with 4 samples.

Results

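Integrins and laminins are the receptors and ligands by which cells hold on to each other and to basement membranes. Their genes were taken as all rows of the deposited table whose symbol has the form of an integrin alpha or beta chain or of a laminin alpha, beta or gamma chain. This gave 39 of 49492 gene rows, made up of 27 integrin receptor chains, 11 laminin chains and Itgbl1, which fits the pattern but encodes a secreted integrin-like protein and no receptor chain. A leukocyte set of 4 integrin chains, Itgal, Itgam and Itgax with their shared partner Itgb2, was set against the other 35 members. Those others include 5 further chains linked to leukocytes, Itgad, Itgae, Itga4, Itgb7 and Itgb2l.

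The series measured RNA of whole mouse testis in 4 libraries, 2 labelled as a Spry1 knockdown by short hairpin and 2 as a control hairpin with wild-type genotype. All 4 came from male C57BL/6J mice that had been given LPS (lipopolysaccharide, a bacterial component that triggers innate immunity), so the controls carry that treatment too. The labels give no age, dose, time or delivery route, no cell type in which the hairpin acted, and no statement that replicates were separate animals, so a p-value reflects only how far these libraries scatter, and that scatter may be technical. The table heads its columns LPS and NC. Here NC stands for the control hairpin, and LPS, which occurs in every title, was read by elimination as the knockdown. If the headings mean LPS against no LPS, every difference below belongs to that contrast. The names LPS columns and NC columns are used throughout, and log2 fold changes above 0 stand for a higher level in the LPS columns.

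Integrins are pairs of an alpha and a beta chain that span the membrane, and neither chain reaches the cell surface well without its partner. Leukocytes use the chains that pair with Itgb2 to stop on endothelium, to cross it and to take up complement-coated particles. Laminins are trimers of an alpha, a beta and a gamma chain and form the scaffold of basement membranes. In the testis they surround the seminiferous tubule and its vessels, and a trimer of the Lama3, Lamb3 and Lamc3 chains sits between elongating spermatids and the Sertoli cells that hold them through Itga6 and Itgb1.

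Libraries totalled 19187627 and 17612342 counts in the LPS columns and 22451132 and 21081589 in the NC columns. The tissue label was matched by abundant spermatid and Sertoli cell transcripts in every library, such as Prm2, with at least 114696 counts, and Clu, with at least 11420. Spry1, the targeted gene, had counts of 26 and 17 in the LPS columns, against 45 and 41 in the NC columns. It was lower in the columns read as the knockdown, at a log2 fold change of -0.82 ± 0.28 (SE), with an edgeR adjusted p of 0.0212. The columns were read from their headings and not from this value.

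Of the 39 members, 35 had enough counts to be tested, and 15 of these were called, 8 higher and 7 lower in the LPS columns. A gene was called when edgeR's quasi-likelihood test gave a Benjamini-Hochberg adjusted p under 0.05 over all 20855 genes tested. By the same rule 31.5% of all genes were called, 15.2% higher and 16.3% lower, against 42.9%, 22.9% and 20.0% of the tested members. The values of the LPS columns did not overlap those of the NC columns in 28 of the 35 tested members, and in 64.1% of all genes. The median log2 fold change was -0.04 over the tested members and 0.002 over all genes. Changes of the members ran both ways, and the difference between their share and the background was not tested. Its size depended on the tool, since DESeq2 called 37.1% of the tested members and 15.8% of all genes.

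Of the 4 chains of the leukocyte set, Itgal and Itgam had the highest log2 fold changes of all tested members, and Itgb2 and Itgax lay within the range of the others. Of these 4, 3 rose and 1 was not called, with a median log2 fold change of 1.82. Of the 31 tested among the other members, 5 rose, 7 fell and 19 were not called, with a median of -0.11. The set was thus 75.0% higher and the others 16.1% higher and 22.6% lower, against 15.2% and 16.3% of all genes. The difference of the medians was 1.92 and lay between 1.81 and 2.05 under every alternative processing. The median of the leukocyte set falls between Itgb2, at 0.95, and Itgam, at 2.68. Itgad, at -1.38, also pairs with Itgb2 but is counted among the others. Summed over the 4 leukocyte chains, the level was 20.0 and 22.4 CPM (counts scaled to library size with TMM factors) in the LPS columns and 4.76 and 5.11 CPM in the NC columns. The other 35 members summed to 331 and 345 CPM in the LPS columns and to 361 and 349 CPM in the NC columns.

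**Figure D1:**
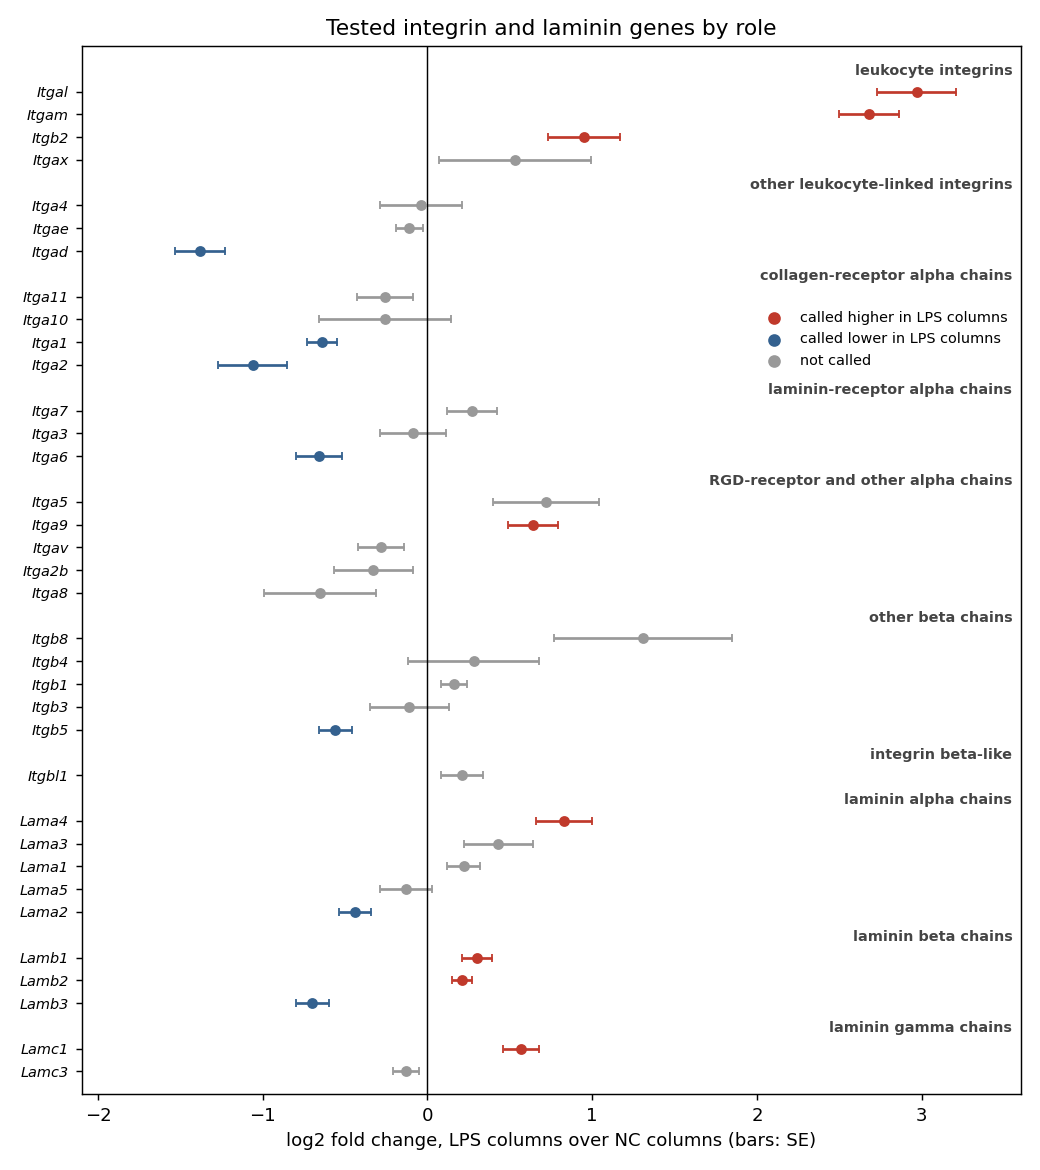
Log2 fold change of each tested integrin and laminin gene, LPS columns over NC columns, grouped by role; points are edgeR estimates from 2 libraries per group and bars their SE. Itgal, at 2.97, and Itgam, at 2.68, lie to the right of all other members, and Itgad, at -1.38, lies farthest to the left.

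Itgal, the alpha chain of LFA-1 on lymphocytes and other leukocytes, was counted 112 and 98 times in the LPS columns and 15 and 15 times in the NC columns. Both LPS libraries were several times above both NC libraries. The level was 5.58 ± 0.14 CPM in the LPS columns and 0.705 ± 0.035 CPM in the NC columns (SD, n = 2 per group). The log2 fold change was 2.97 ± 0.24 (SE), a 7.86-fold rise, with an edgeR adjusted p of 1.62e-12. Only 0.489% of all genes tested had a higher log2 fold change than Itgal. The gene lies on chromosome 7 from 127296260 to 127335138 in mm10 (ENSMUSG00000030830.18), and no other gene row overlaps its span.

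Itgam, the alpha chain of Mac-1 or complement receptor 3 on macrophages, monocytes and neutrophils, had counts of 197 and 211 in the LPS columns, against 42 and 30 in the NC columns. The level was 10.9 ± 1.3 CPM in the LPS columns and 1.68 ± 0.32 CPM in the NC columns (SD, n = 2 per group). The groups did not overlap, and Itgam rose 6.41-fold, with a log2 fold change of 2.68 ± 0.18 (SE) and an edgeR adjusted p of 5.5e-15. It lies on chromosome 7 from 128062640 to 128128160 in mm10, and its row holds 347 exon bases of a pseudogene row, RP23-144N15.3, which had at most 9 counts in any library.

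Itgb2, the beta chain that all leukocyte alpha chains of this set share, rose by less. The gene lies on chromosome 10 from 77530252 to 77565708. It was counted 72 and 82 times in the LPS columns and 36 and 54 times in the NC columns. The groups did not overlap, at 4.12 ± 0.66 CPM in the LPS columns and 2.13 ± 0.70 CPM in the NC columns (SD, n = 2 per group). The log2 fold change was 0.95 ± 0.22 (SE), a 1.93-fold rise, with an edgeR adjusted p of 0.000823. Its 95% interval, 0.51 to 1.39, ended below those of Itgam, 2.32 to 3.03, and Itgal, 2.49 to 3.46.

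Itgax, the alpha chain of complement receptor 4 and a marker of dendritic cells and some macrophages, was near the limit of detection. It had counts of 13 and 10 in the LPS columns, against 12 and 6 in the NC columns. Its log2 fold change was 0.53 ± 0.46 (SE) with an edgeR adjusted p of 0.416, and the 95% interval of -0.40 to 1.46 allows a fall as well as a rise. Leaving out single libraries moved the estimate between 0.17 and 1.05.

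**Figure D2:**
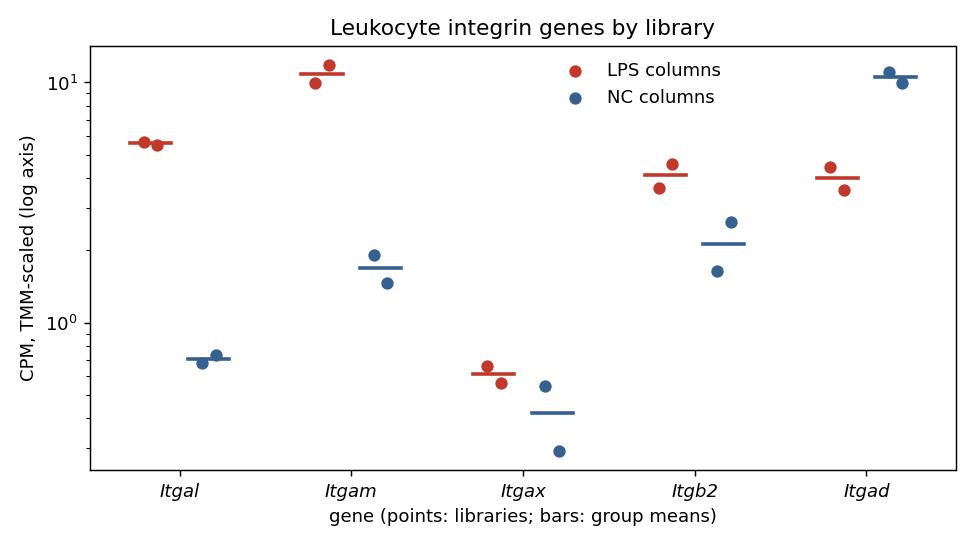
Level of the 4 leukocyte chains and of Itgad in each library, in TMM-scaled CPM on a log axis; points are libraries and bars group means. Itgal and Itgam are higher in both LPS columns, at means of 5.58 and 10.9 CPM, whereas Itgad is lower there, at 4.02 CPM, than in the NC columns, at 10.5 CPM.

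Itgad, which encodes one more alpha chain that pairs with Itgb2, moved the other way. It was counted 88 and 64 times in the LPS columns and 244 and 204 times in the NC columns. The level was 4.02 ± 0.62 CPM in the LPS columns and 10.5 ± 0.81 CPM in the NC columns (SD, n = 2 per group). Itgad fell to 38.4% of the NC level, with a log2 fold change of -1.38 ± 0.15 (SE) and an edgeR adjusted p of 1.43e-09, and 1.41% of all genes tested had a lower value. Its row is uncertain, because 388 of its 4510 exon bases are shared with 4931431B13Rik on the opposite strand, and the strand setting of the counting is not given in the sources used here. That transcript had counts of 52 and 55 in the LPS columns, against 204 and 162 in the NC columns and fell by 1.59 ± 0.16 on the log2 scale. Itgad also shares 330 exon bases with Gm17831 on the same strand. On the opposite strand it shares 102 with Gm45108 and 70 with Cox6a2. Gm17831, Gm45108 and Cox6a2 had at most 11 counts in any library. The part of these overlapping rows in the fall of Itgad was not tested.

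Itgam, Itgax and Itgad are direct neighbours on chromosome 7, read in the same direction. A gap of 1.4 kb separates Itgam from Itgax and one of 3.7 kb separates Itgax from Itgad, with no other gene row between them. Within this stretch Itgam rose, Itgax was not called and Itgad fell. The start regions of Itgam and Itgax are shown because these neighbours differed in response, with GAGGAA, a core motif of the myeloid factor PU.1 (Spi1), in capitals on either strand (TTCCTC is its reverse complement). Each runs 5′ to 3′ on the plus strand, from RefSeq on GRCm38.p6, the assembly of mm10, with 250 bases before and 50 after the annotated start.
Itgam promoter, chr7:128062390-128062689: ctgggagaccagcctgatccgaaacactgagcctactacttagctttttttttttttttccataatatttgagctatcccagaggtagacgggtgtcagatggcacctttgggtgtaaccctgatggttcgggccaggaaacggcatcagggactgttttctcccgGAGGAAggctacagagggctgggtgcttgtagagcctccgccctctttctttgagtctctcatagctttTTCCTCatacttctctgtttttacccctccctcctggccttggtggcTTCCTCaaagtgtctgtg
Itgax promoter, chr7:128129300-128129599: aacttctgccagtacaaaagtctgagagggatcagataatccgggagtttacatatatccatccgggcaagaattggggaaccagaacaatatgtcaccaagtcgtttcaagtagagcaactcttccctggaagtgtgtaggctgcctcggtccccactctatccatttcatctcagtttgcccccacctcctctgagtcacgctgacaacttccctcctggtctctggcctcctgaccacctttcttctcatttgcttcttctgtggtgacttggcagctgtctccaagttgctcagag

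The Itgam window held 3 matches, 1 forward and 2 reverse, and the Itgax window held 0. Of 32851 promoters of this length, 28.3% held at least 1 match and 0.685% held 3 or more. Promoters were listed for 25 of the 39 members, in 28 windows, of which 15 held a match. Itgal, Itgb2 and Itgad were among the members without an entry. A match of these letters is a description of the window and not evidence of binding. Windows with a match belonged to members that rose, such as Lamb1, that fell, such as Lama2, and that were not called, such as Itgav. The window of Itga9, which rose, held 0. That window starts at 118711442 on chromosome 9, well inside the deposited Itga9 row, which starts at 118606690. The Lama2 window, 27616893 to 27617192 on chromosome 10, also lies inside its row, which is read from 27619758. Spi1 itself was counted 64 and 46 times in the LPS columns and 29 and 35 times in the NC columns and rose by 0.95 ± 0.24 on the log2 scale. A part of the motif or of Spi1 in the response of these genes was not tested.

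The make-up of the alpha chains that pair with Itgb2 was compared per exon length, in RPKM (CPM per kilobase of exon). Itgad took 27.8% and 22.1% of the summed RPKM of Itgal, Itgam, Itgax and Itgad in the LPS columns, and 82.6% and 84.6% in the NC columns. Itgam took 44.0% and 51.5% in the LPS columns and 10.1% and 8.80% in the NC columns. Itgal took 24.3% and 23.2% in the LPS columns and 3.49% and 4.27% in the NC columns. The leading alpha transcript was thus Itgam in both LPS libraries and Itgad in both NC libraries, with the limit on Itgad given above. The summed RPKM of these 4 chains was 3.57 ± 0.03 in the LPS columns and 2.79 ± 0.26 in the NC columns (SD, n = 2 per group). Itgb2 alone was at 1.35 ± 0.22 RPKM in the LPS columns and at 0.698 ± 0.23 RPKM in the NC columns.

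**Figure D3:**
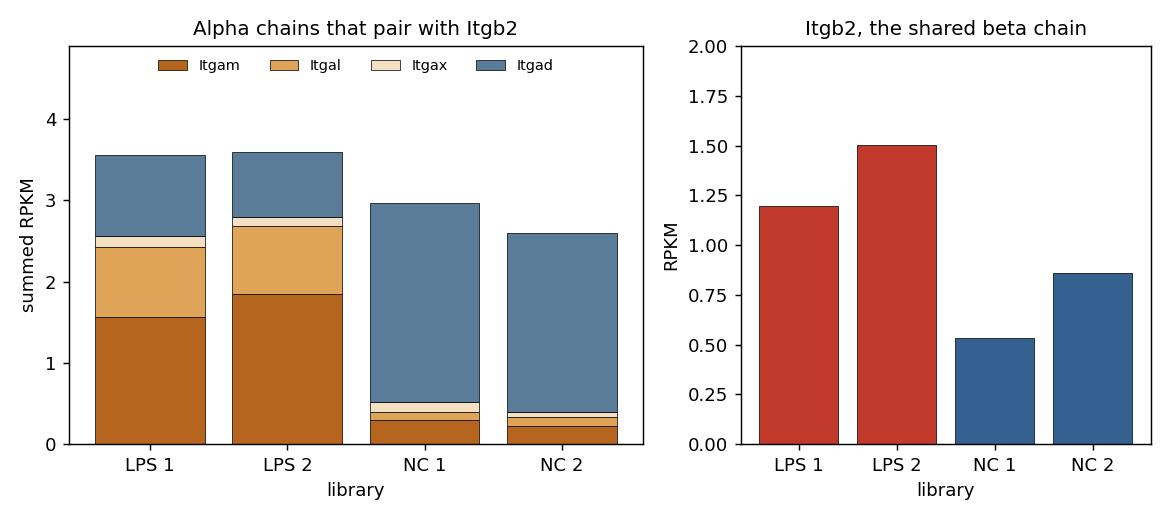
Left, RPKM of the alpha chains that pair with Itgb2, stacked for each library; right, RPKM of Itgb2 in the same libraries. Itgad makes up 82.6% and 84.6% of the stack in the NC libraries, and Itgam and Itgal make up most of it in the LPS libraries.

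Markers of leukocytes moved beside these chains and in both directions. In whole tissue, more cells of a type and more RNA per cell cannot be told apart. Of 18 tested myeloid markers, 9 rose, 5 fell and 4 were not called, against 15.2% of all genes called higher and 16.3% lower. Ptprc, the pan-leukocyte antigen, had counts of 75 and 89 in the LPS columns, against 31 and 26 in the NC columns, and rose by 1.70 ± 0.23 on the log2 scale. Adgre1, the F4/80 antigen of macrophages, rose by 1.97 ± 0.16. The largest rise was that of Cd14, 5.67-fold, and the largest fall that of Cd163, a scavenger receptor of resident macrophages, which fell by 2.00 ± 0.57. The 20 myeloid markers summed to 401 and 412 CPM in the LPS columns and to 402 and 430 CPM in the NC columns, most of which was Aif1. Without Aif1, left out after its values were seen, they summed to 116 and 126 CPM in the LPS columns and to 83.2 and 91.3 CPM in the NC columns.

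Relative to Ptprc, in ratios of RPKM, Itgal was at 4.16 and 3.07 in the LPS columns and at 1.35 and 1.61 in the NC columns. Itgam was at 7.54 and 6.81 times Ptprc in the LPS columns and at 3.89 and 3.31 times in the NC columns. Itgb2 was at 5.76 and 5.53 times Ptprc in the LPS columns and at 6.97 and 12.5 times in the NC columns. Itgax was at 0.661 and 0.428 times Ptprc in the LPS columns and at 1.48 and 0.880 times in the NC columns. Per unit of Ptprc, Itgal and Itgam were therefore higher in both LPS libraries, and Itgb2 and Itgax were lower in both. Itgad was lower as well, at 4.76 and 2.92 times Ptprc in the LPS columns and at 32.0 and 31.9 times in the NC columns. Ratios over so few Ptprc counts carry wide counting error, and no test was made on them.

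Markers of other leukocytes were scarce. Their counts of calls stand beside 15.2% of all genes called higher and 16.3% lower. Of 13 neutrophil markers, 3 could be tested and 2 of them rose. S100a9 was counted 35 and 32 times in the LPS columns and 0 times in the NC columns, while S100a8 was counted 5 and 2 times in the LPS columns and 0 and 1 times in the NC columns. The list summed to 4.46 and 4.98 CPM in the LPS columns and to 1.77 and 1.99 CPM in the NC columns, and the counts of its defining marker Ly6g were 0 and 0 in the LPS columns and 4 and 6 in the NC columns. Of 16 lymphocyte and NK cell markers, 7 could be tested, of which 0 rose and 3 fell. Cd3d had a log2 fold change of -0.34 ± 0.19 and was not called, Cd3e had at most 8 counts in any library, and Ighm fell by 3.03 ± 0.51. The list summed to 8.10 and 8.39 CPM in the LPS columns and to 11.9 and 11.8 CPM in the NC columns, and Ncr1, which defines NK cells, was at 0 throughout. Within the same list Gzmb was too scarce to be tested, with counts of 5 and 5 in the LPS columns and 1 and 2 in the NC columns. Nkg7, also too scarce to be tested, went the other way, with counts of 0 and 0 in the LPS columns and 4 and 7 in the NC columns. So few counts give no reading of Itgal by cell type. Of 6 dendritic cell markers, 2 could be tested and both fell, Flt3 by 1.06 ± 0.31 on the log2 scale, and Xcr1 had at most 9 counts in any library. That list summed to 15.5 and 14.4 CPM in the LPS columns and to 18.7 and 19.9 CPM in the NC columns, with Cd209a at 0 throughout. The part of any of these cell types in the integrin values was not tested.

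The remaining integrins linked to leukocytes were not called or were too scarce to be tested. Itgae, whose product pairs with Itgb7 and binds E-cadherin on epithelium, had counts of 595 and 555 in the LPS columns, against 715 and 686 in the NC columns. Its log2 fold change was -0.11 ± 0.08, not called (edgeR adjusted p = 0.315). Per exon length it was among the highest integrins, at 6.68 ± 0.14 RPKM in the LPS columns and 7.18 ± 0.14 RPKM in the NC columns (SD, n = 2 per group), although Itgb7 had at most 4 counts in any library. Gsg2, which encodes the germ cell kinase haspin and lies within Itgae on the opposite strand without shared exon bases, had 10160 to 13107 counts a library. How far reads of Gsg2 entered the Itgae row was not tested. Itga4, a chain of the receptor for Vcam1, was not called, at -0.04 ± 0.25, and Itgb2l had 1 count in each LPS library and 0 in the NC libraries.

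Of the 23 integrin receptor chains outside the leukocyte set, Itgad included, 20 were tested, and 1 rose, 5 fell and 14 were not called. That is 30.0% called, 5.0% higher and 25.0% lower, against 31.5%, 15.2% and 16.3% of all genes, and their median log2 fold change was -0.18. Among collagen receptor chains, 2 of 4 fell, and Itga2 had the largest called fall after Itgad. Itga2 was counted 38 and 32 times in the LPS columns and 85 and 80 times in the NC columns. It fell by 1.06 ± 0.21 on the log2 scale, to 48.1% of the NC level (edgeR adjusted p = 0.000162). Itga1 had counts of 327 and 298 in the LPS columns, against 576 and 530 in the NC columns. It fell by 0.64 ± 0.09, to 64.0% of the NC level (edgeR adjusted p = 3.73e-07). For both genes the groups did not overlap. Itga1 was at 16.6 ± 0.07 CPM in the LPS columns and 26.0 ± 0.25 CPM in the NC columns (SD, n = 2 per group). An SD of 2 libraries can be small by chance and does not measure precision.

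Itga1 and Itga2 are neighbours on chromosome 13, 26.0 kb apart, and both are read from the minus strand. Pelo lies inside the span of Itga1 without shared exon bases and had 117 to 169 counts a library. The remaining collagen receptor chains, Itga10 and Itga11, were not called, at -0.26 ± 0.40 and -0.26 ± 0.17. Of the Itga10 row, 33.5% of the exon bases are shared with Gm42957, so its low counts, 9 to 21 a library, are uncertain.

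Among laminin receptor chains, Itga6, which pairs with Itgb1 or Itgb4, was counted 115 and 86 times in the LPS columns and 176 and 182 times in the NC columns. It fell by 0.66 ± 0.14 (edgeR adjusted p = 0.000471), to 63.5% of the NC level. Itga3 and Itga7 were not called, at -0.09 ± 0.20 and 0.27 ± 0.15. The row of Itga7 shares 1 exon base with Mettl7b on the opposite strand, which had counts of 10 and 9 in the LPS columns, against 134 and 148 in the NC columns.

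Of the beta chains other than Itgb2, Itgb5, the partner of Itgav in a vitronectin receptor, fell. It was counted 353 and 256 times in the LPS columns and 516 and 499 times in the NC columns, a log2 fold change of -0.56 ± 0.10 (edgeR adjusted p = 2.01e-05). Itgav was not called, at -0.28 ± 0.14. Itgb1, the partner of most alpha chains, had counts of 537 and 513 in the LPS columns, against 547 and 514 in the NC columns. Its log2 fold change was 0.16 ± 0.08 and was not called (edgeR adjusted p = 0.124), with a 95% interval of 0.00 to 0.33. The alpha chains Itga1, Itga2 and Itga6 were therefore lower, and their shared partner Itgb1 was not called.

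Itga9, which pairs with Itgb1 and binds tenascin and other matrix proteins, was the member that rose outside the leukocyte set among integrins. It was counted 143 and 122 times in the LPS columns and 99 and 93 times in the NC columns. The log2 fold change was 0.64 ± 0.15 (edgeR adjusted p = 0.00101), a 1.56-fold rise. Several chains of low count had estimates of similar or larger size without being called. Itga5, of the main fibronectin receptor, was at 0.72 ± 0.32 with 16 to 29 counts a library, and Itgb8, which with Itgav activates latent TGF-beta, at 1.31 ± 0.54 with 4 to 11. Itga8, a nephronectin receptor chain, was at -0.65 ± 0.34. Itga2b and Itgb3, the platelet pair, were at -0.33 ± 0.24 and -0.11 ± 0.24, and Itgb4 was at 0.28 ± 0.40. Itgb6, an epithelial chain, had 0 counts in every library, which allows up to 0.168 CPM in the shallowest. Itgbl1 was not called, at 0.21 ± 0.13.

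**Figure D4:**
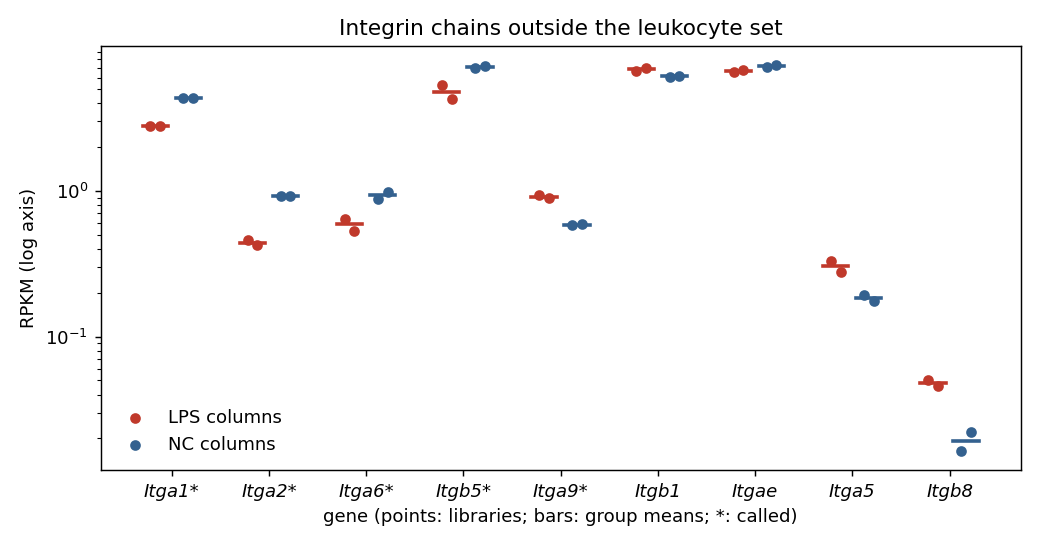
RPKM of 9 integrin chains outside the leukocyte set in each library, on a log axis; points are libraries, bars group means, and an asterisk marks a called gene. Itga1, Itga2, Itga6 and Itgb5 are lower and Itga9 higher in both LPS columns, while Itgb1, Itgae, Itga5 and Itgb8 were not called.

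Of 10 tested laminin chains, 4 rose, 2 fell and 4 were not called, with a median log2 fold change of 0.21. These are 40.0% higher and 20.0% lower, against 15.2% and 16.3% of all genes. Among alpha chains, Lama4, found mainly in vessel basement membranes, had counts of 105 and 116 in the LPS columns, against 66 and 75 in the NC columns. It rose by 0.83 ± 0.17 (edgeR adjusted p = 0.000318). Lama2, the alpha chain of muscle basement membranes, was counted 332 and 269 times in the LPS columns and 508 and 413 times in the NC columns. It fell by 0.44 ± 0.10 (edgeR adjusted p = 0.000578). Lama1, Lama3 and Lama5 were not called, at 0.22 ± 0.10, 0.43 ± 0.21 and -0.13 ± 0.16. By RPKM, Lama4 took 10.7% and 12.2% of the alpha chains in the LPS columns and 5.93% and 7.72% in the NC columns, while Lama2 took 25.1% and 20.9% in the LPS columns and 33.7% and 31.4% in the NC columns.

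Among beta chains, Lamb3 fell while both of the others rose. Lamb3 had counts of 222 and 228 in the LPS columns, against 425 and 403 in the NC columns. The level was 12.0 ± 1.1 CPM in the LPS columns and 19.4 ± 0.23 CPM in the NC columns (SD, n = 2 per group), a fall by 0.70 ± 0.10 on the log2 scale (edgeR adjusted p = 1.05e-06). The deposited Lamb3 row starts at 193207699 on chromosome 1, well before the RefSeq promoter windows at 193301744 and 193301993, and spans Hsd11b1 and G0s2 on the opposite strand without sharing exon bases. Lamb2, the most abundant member per exon length in both groups, was counted 1197 and 1091 times in the LPS columns and 1192 and 1056 times in the NC columns, and rose by 0.21 ± 0.06 (edgeR adjusted p = 0.0140). Lamb1 had counts of 396 and 394 in the LPS columns, against 379 and 348 in the NC columns, and rose by 0.30 ± 0.09 (edgeR adjusted p = 0.0118).

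The calls of Lamb1 and Lamb2 are small and rest on single choices. Without LPS replicate 2 both calls were lost, Lamb1 at a log2 fold change of 0.23 (edgeR adjusted p = 0.135) and Lamb2 at 0.20 (edgeR adjusted p = 0.0526). Without NC replicate 2 both were lost as well, Lamb1 at 0.29 (edgeR adjusted p = 0.0557) and Lamb2 at 0.17 (edgeR adjusted p = 0.141). Laminin chains that rose then numbered 2, and the members that rose outside the leukocyte set numbered 3. DESeq2 did not call them either (adjusted p = 0.134 for Lamb1 and 0.101 for Lamb2). Over all alternatives their adjusted p, Benjamini-Hochberg in edgeR, DESeq2 or limma, ranged from 0.00333 to 0.135 for Lamb1 and from 0.00189 to 0.141 for Lamb2. Lamb3 took 12.4% and 13.6% of the beta chains by RPKM in the LPS columns, and 21.5% and 22.6% in the NC columns.

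Among gamma chains, Lamc1, which is part of most laminin trimers, was counted 334 and 398 times in the LPS columns and 302 and 259 times in the NC columns. It rose by 0.57 ± 0.11 (edgeR adjusted p = 0.000102), and without LPS replicate 2 by 0.36 with an adjusted p of 0.0206. Lamc3 had counts of 466 and 487 in the LPS columns, against 631 and 555 in the NC columns, and was not called, at -0.13 ± 0.08. Of the chains of the spermatid trimer, Lamb3 was thus lower, and Lama3 and Lamc3 were not called. Of the receptor chains on the Sertoli side, Itga6 was lower and Itgb1 was not called.

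**Figure D5:**
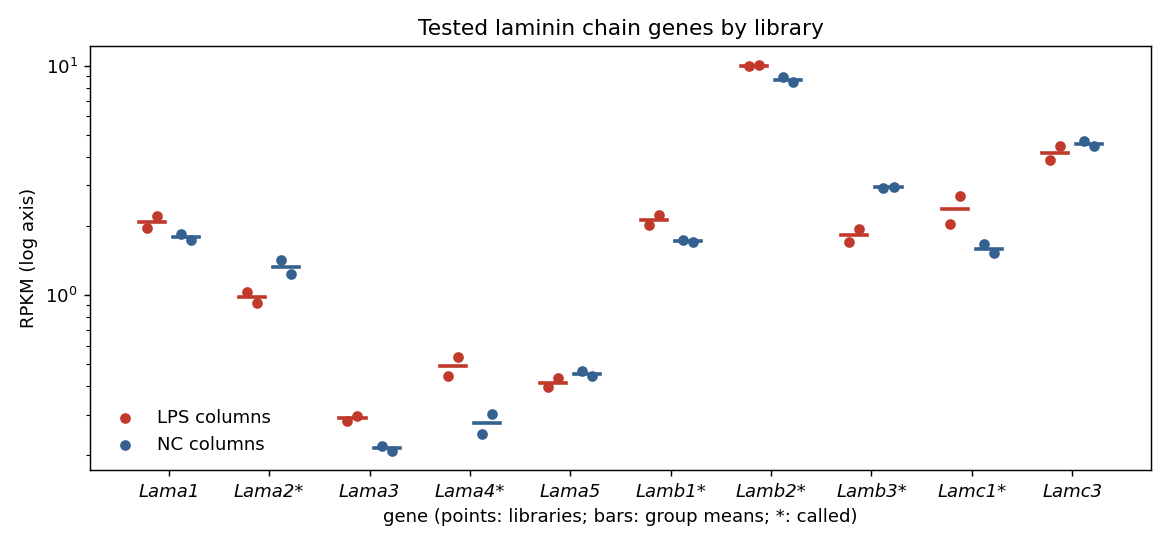
RPKM of the 10 tested laminin chains in each library, on a log axis; points are libraries, bars group means, and an asterisk marks a called gene. Lama4, Lamb1, Lamb2 and Lamc1 are higher and Lama2 and Lamb3 lower in both LPS columns, and Lamb2 is the highest chain, at 9.97 and 10.03 RPKM in the LPS columns and 8.89 and 8.45 RPKM in the NC columns.

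Markers of other testis cell types moved as well. For comparison with each count of this and the next paragraph, 15.2% of all genes were called higher and 16.3% lower. Peritubular myoid and smooth muscle markers rose in 4 of 6 tested genes and fell in 0, with Acta2 at 0.62 ± 0.07, Myh11 at 0.57 ± 0.05 and Des, the largest, at 0.81 ± 0.17. The list summed to 322 and 327 CPM in the LPS columns and to 218 and 230 CPM in the NC columns. Sertoli cell markers rose in 5 of 10 and fell in 0, with Sox9 at 0.54 ± 0.08, Gata1, the largest, at 0.83 ± 0.14, and Wt1 not called at 0.14 ± 0.09. That list summed to 908 and 894 CPM in the LPS columns and to 661 and 657 CPM in the NC columns. Endothelial markers rose in 2 of 8 and fell in 1, with Pecam1 not called at 0.32 ± 0.26, Cdh5 at 0.74 ± 0.19, Tek at 1.04 ± 0.23 and Vwf at -0.45 ± 0.12, and summed to 27.1 and 31.0 CPM in the LPS columns and to 31.4 and 25.1 CPM in the NC columns.

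Leydig cell markers fell in 5 of 8 and rose in 1, with Star at -1.19 ± 0.07, Cyp17a1, the largest fall, at -2.46 ± 0.07 and Cyp11a1 at 0.26 ± 0.07. They summed to 451 and 522 CPM in the LPS columns and to 864 and 905 CPM in the NC columns. Spermatid markers fell in 7 of 9 and rose in 1, with Acr at -0.15 ± 0.06, Acrv1 at -0.29 ± 0.06, Prm2 at -0.69 ± 0.05 and Spaca1 at 0.27 ± 0.05, and summed to 14500 and 14000 CPM in the LPS columns and to 20400 and 19700 CPM in the NC columns. Spermatogonia markers rose in 3 of 6 and fell in 0, with Zbtb16 at 0.53 ± 0.17, Gfra1 not called at -0.16 ± 0.24 and Stra8 at 0.81 ± 0.08, and summed to 89.9 and 101 CPM in the LPS columns and to 63.0 and 69.8 CPM in the NC columns. No list of these markers was at 0 in either group, and the part of these cell types in the integrin and laminin values was not tested.

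Ligands and cytoplasmic partners of the integrins were counted from lists drawn up by role. Of 8 tested counter-receptors on cells, 4 rose and 0 fell. Icam1, the ligand of the Itgal and Itgam receptors, was counted 228 and 232 times in the LPS columns and 45 and 44 times in the NC columns, a log2 fold change of 2.55 ± 0.16, which lay near those of Itgal and Itgam. Of 16 tested matrix ligands and laminin partners, 5 rose and 5 fell, or 31.2% each way against 15.2% higher and 16.3% lower of all genes. Spp1 or osteopontin rose 2.82-fold, with a 95% interval of the log2 fold change of 1.04 to 1.95 and 80 and 65 counts in the LPS columns and 31 and 27 in the NC columns. Tnc or tenascin C, a ligand of the Itga9 receptor, fell by 1.10 ± 0.16, with 83 and 54 counts in the LPS columns and 165 and 166 in the NC columns.

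Of 33 tested genes of the integrin adhesion complex, 10 rose, 4 fell and 19 were not called. These are 30.3% higher and 12.1% lower, against 15.2% and 16.3% of all genes. No called gene of this list changed by 1 or more on the log2 scale. The genes of this list named here were chosen after their values were seen. Fermt3, the kindlin of blood cells, had counts of 47 and 60 in the LPS columns, against 34 and 28 in the NC columns, and rose by 0.97 ± 0.25. Parvg fell by 0.43 ± 0.09, and Skap2 rose by 0.33 ± 0.07. Skap1, Apbb1ip, Fyb and Rasgrp2 were not called, at -1.05 ± 0.44, -0.16 ± 0.15, -0.11 ± 0.10 and -0.03 ± 0.27. Tln1, the talin that activates leukocyte integrins, was counted 1283 and 1248 times in the LPS columns and 1172 and 1076 times in the NC columns and rose by 0.35 ± 0.06, while Tln2 had counts of 2828 and 2596 in the LPS columns, against 4535 and 4000 in the NC columns and fell by 0.47 ± 0.05. Over the 57 tested genes of these 3 lists, 19 rose and 9 fell, with a median log2 fold change of 0.01. These are 33.3% higher and 15.8% lower, against 15.2% and 16.3% of all genes. The differences from these shares were not tested.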

How the data were processed

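The authors deposited raw read counts per gene for the 4 libraries, in a table whose leading columns are those of featureCounts. Per the submitters' processing notes, DESeq, edgeR 3.12.1, featureCounts, STAR 2.5.3a, Subread 1.5.1 and Trimmomatic 0.36 were used with build mm10, without roles. UMI handling, annotation and strand setting were not given in the sources used here, so reads of overlapping genes cannot be assigned with certainty. Per the labels' protocols, RNA was extracted with TRIzol for a stranded mRNA kit.

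Counts were filtered with filterByExpr and scaled by TMM, and the LPS and NC columns were compared by the quasi-likelihood test of edgeR 4.0.16, with p-values adjusted by Benjamini-Hochberg over all 20855 genes tested, with 2 residual and 34 prior degrees of freedom. The SE is the one implied by the F statistic. CPM use TMM-scaled library sizes, and RPKM divides them by the deposited exon length. Floors take 3 counts a library and cover counting error only. The fit was tested on simulated data. Replicates differed by more than sampling noise (chi-square per degree of freedom 2.31 for LPS and 2.20 for NC).

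GENCODE M21 matched the position and symbol of 32 of 39 members; RefSeq gave promoters. Alternatives, with DESeq2 1.42.0 and limma 3.58.1, are given in the closing section. Members and lists were chosen with earlier results of these data known. Every member was counted, and 1 is not reported by name here. Ligand and adhesion genes were named when called and changed by 1 or more on the log2 scale. Markers were named as the first 2 of a list and the largest called change each way. The adhesion complex genes, and the markers Aif1, Clu, Cd209a, Gzmb, Ly6g, Ncr1, Nkg7 and Spi1, were named outside these rules.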

Additional observations from a re-analysis of the deposited data

How the results depend on the processing

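Of 13 alternatives, each changing 1 choice, none changed the direction of any of the 15 called members, and 13 of the 15 stayed called under all of them. The exceptions were Lamb1 and Lamb2, as given in the report, and Lamb2 was also lost with offsets for the trend on gene length (0.16, edgeR adjusted p = 0.0519); exon lengths had a median of 6091 bases in tested members and 3058 in all tested genes. Itgal lay between 2.92 and 3.04, Itgam between 2.51 and 2.90, Itgb2 between 0.65 and 1.33 and Itgad between -1.55 and -1.23. DESeq2 called 1454 genes higher and 1845 lower, 11 ligand and adhesion complex genes higher, 2 laminin chains higher and 3 members outside the leukocyte set higher. With library size as the only scaling, 62.0% of all calls were higher against 48.3%, the median of all genes was 0.066, 8 members outside the leukocyte set were higher, 3 of them integrin chains, and Itgb1 (0.23), Itgb8 (1.37) and Lama1 (0.28) were called.

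Leaving out 1 library, where the lone one was assumed to vary like the others, gave 2255 to 2730 genes higher and 2436 to 2962 lower, 6 to 9 members higher and 7 to 8 lower, 3 leukocyte chains higher each time and 0 lower, 3 to 6 other members higher and 7 to 8 lower, 2 to 5 laminin chains higher and 2 lower, 1 further integrin chain higher and 5 to 6 lower, and 13 to 19 ligand and adhesion complex genes higher and 6 to 9 lower. Lama1 was called without LPS replicate 1 (0.31) and Itga11 without LPS replicate 2 (-0.53). Uncalled members that changed sign when a library was left out were Itga4 (-0.24 to 0.22), Itga10 (-0.80 to 0.17, and 0.08 without NC replicate 1), Itgb3 (-0.23 to 0.02), Itga3 (-0.28 to 0.16, and 0.02 without LPS replicate 2) and Itgb4 (-0.28 to 0.71), and Itga4 was at 0.02 with library size only. The cause was not tested.

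With the replicate number as a block, 3376 genes were higher and 3593 lower, and 8 members higher and 7 lower. The numbers were not taken as pairing, since replicate differences of the groups had a correlation of 0.018 across genes, which are not independent. At these depths, members with under about 30 counts a library gave SEs of 0.32 to 0.54.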
